A study of Rattus norvegicus with 6 samples.

Results

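The 10 genes described here encode enzymes that can oxidize ethanol, oxidize the acetaldehyde that results, or activate the acetate at the end of the route. They were chosen by name, as the rows of the count files whose NCBI gene identifier carries the rat symbol Adh5, Adh7, Cat, Cyp2e1, Aldh2, Aldh1a1, Aldh1b1, Aldh3a2, Aldh7a1 or Acss2. All 10 were found among the 38445 genes counted. Of these, 8 had enough reads to be tested, while Adh7 and Cyp2e1 did not.

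The RNA was from the amygdala of adult male Sprague Dawley/WT rats. The control group was injected intraperitoneally with saline and the acute ethanol group with ethanol at 1 g/kg, and tissue was collected 1 h later in both. RNA of 2 rats was pooled for each library, so 6 rats per group gave 3 control and 3 ethanol libraries. Each library therefore holds the mean of a pair of rats and all dissected nuclei (central, medial and basolateral) together, and in such bulk tissue fewer cells of a type and less RNA per cell cannot be told apart. The reads assigned to genes numbered 62576504 to 70755739 in a library, and 3 counts corresponded to 0.0424 to 0.0479 CPM, the usual scaling of counts to a common library size. Markers of the amygdala's glutamatergic and GABA neurons, among them Slc17a7, Slc32a1 and Prkcd, were all detected, with 9 of 9 tested.

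In the liver, alcohol dehydrogenases carry out most of the first step of ethanol breakdown, and mitochondrial Aldh2 removes most of the acetaldehyde. The brain is known to rely more on catalase, a peroxisomal enzyme that oxidizes ethanol with hydrogen peroxide, and on the microsomal cytochrome P450 Cyp2e1. Acetate, the end product, reaches the brain largely through the blood and is turned into acetyl-CoA by synthetases such as Acss2, which also feeds histone acetylation.

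Levels of different genes can be compared only per length, so the order of the 10 transcripts was taken from CPM scaled by TMM (edgeR's correction for library make-up) and divided by the exonic length in kilobases (RPKM). Adh5 had the highest mean over the 6 libraries, 41.7 RPKM, followed by Cat at 39.1, Aldh2 at 37.3 and Aldh7a1 at 32.6 RPKM. Acss2 (22.7 RPKM) and Aldh3a2 (18.5 RPKM) formed the middle of the order. Aldh1b1 and Aldh1a1 were lower, at 8.33 and 7.57 RPKM. Cyp2e1 (0.0898 RPKM) and Adh7 (0.0164 RPKM) were far below all others in every library. The ranges of the 6 libraries overlapped between Adh5 and Cat, between Cat and Aldh2, between Aldh2 and Aldh7a1, and between Aldh1b1 and Aldh1a1, so these neighbours could not be ranked by their ranges. Within each library, however, Adh5 was above Cat in 6 of 6, whereas both Adh5 and Cat were above Aldh2 in 4 of 6. By mean RPKM, Adh5 lay above 89.6% of the genes tested and Aldh1a1 above 57.6%.

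**Figure D1:**
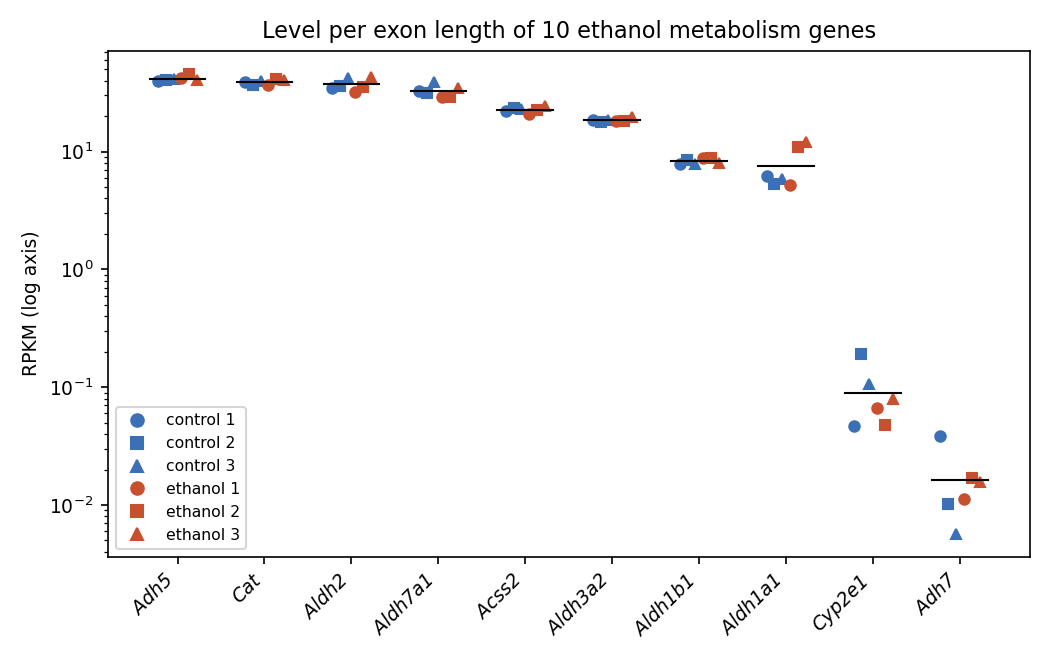
Level of each of the 10 transcripts in RPKM (log axis) in every library; blue marks are control and red marks ethanol libraries, the mark's shape gives the replicate number, and the black line is the mean of the 6 libraries. Adh5, Cat, Aldh2 and Aldh7a1 lie between 28.8 and 45.8 RPKM, whereas Cyp2e1 and Adh7 stay at or below 0.191 RPKM in all libraries.

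Adh5 and Adh7 lie at opposite ends of the alcohol dehydrogenase cluster of chromosome 2. In Rnor_6.0, the build of the count files, Adh7 lies at chr2:243500540-243516865 with 10 exonic blocks and Adh5 at chr2:243728500-243740907 with 9 exonic blocks, both on the plus strand and 212 kb apart. The cluster holds Adh7, Adh1c, Adh6a, Adh6, Adh4 and Adh5 in this order over 240.4 kb. Adh5 had 3607 to 4087 counts per library. Adh1c, the class I enzyme known from the liver, had 11 to 32 counts, Adh7 had 1 to 7, Adh6a and Adh6 had at most 1, and Adh4 had 0 counts in all 6 libraries. Thus nearly all alcohol dehydrogenase reads of this cluster came from Adh5. A count near 0 in these files was not read as absence of the transcript. Eno2, the neuron-specific enolase, had only 0 to 5 counts per library, and the widely used Aldh18a1 was listed at 0 in all libraries, although no exon of either overlapped another gene on its strand.

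The promoters of this pair and of Aldh1a1 are shown because Adh5 and Adh7 mark both ends of the order in level and Aldh1a1 differed most between libraries among the 8 tested genes. The sequences are from RefSeq, build GRCr8, and run from 250 bases before to 50 bases after the gene's start. Capitals mark matches, on either strand, to the GC box (GGGCGG), the CCAAT box (CCAAT) and the TATA box (TATAAA); no motif match overlaps another. The window of Adh5 is chr2:229648307-229648606, that of Adh7 chr2:229421875-229422174 and that of Aldh1a1 chr1:227537370-227537669, all on the plus strand.
Adh5: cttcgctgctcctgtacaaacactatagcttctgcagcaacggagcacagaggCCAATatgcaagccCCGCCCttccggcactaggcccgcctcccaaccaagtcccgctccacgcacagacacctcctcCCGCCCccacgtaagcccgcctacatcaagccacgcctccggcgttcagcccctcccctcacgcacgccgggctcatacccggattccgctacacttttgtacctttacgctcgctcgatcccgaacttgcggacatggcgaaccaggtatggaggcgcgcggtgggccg
Adh7: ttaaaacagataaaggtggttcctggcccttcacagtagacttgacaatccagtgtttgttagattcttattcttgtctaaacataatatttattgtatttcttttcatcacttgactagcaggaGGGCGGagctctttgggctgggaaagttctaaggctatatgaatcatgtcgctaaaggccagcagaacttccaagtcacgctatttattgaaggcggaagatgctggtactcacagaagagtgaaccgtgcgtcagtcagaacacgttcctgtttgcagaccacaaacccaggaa
Aldh1a1: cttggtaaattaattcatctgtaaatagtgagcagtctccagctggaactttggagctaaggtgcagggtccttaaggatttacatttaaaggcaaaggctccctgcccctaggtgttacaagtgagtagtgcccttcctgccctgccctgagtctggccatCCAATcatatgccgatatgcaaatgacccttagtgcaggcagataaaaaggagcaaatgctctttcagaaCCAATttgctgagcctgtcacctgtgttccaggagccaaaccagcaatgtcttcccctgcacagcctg
The Adh5 window had a GC content of 63.7% and 28 CpG dinucleotides, that of Adh7 a GC content of 43.0% and 7 CpG, and that of Aldh1a1 a GC content of 48.3% and 1 CpG. Adh5 held 2 GC boxes and 1 CCAAT box, Adh7 held 1 GC box, and Aldh1a1 held 2 CCAAT boxes. Over all 27457 promoters of this length, 34.9% held GGGCGG, 37.7% held CCAAT and 14.3% held TATAAA. The RefSeq promoter table matched 9 of the 10 genes, all but Aldh2. TATAAA matched only in the window of Cyp2e1, 49 bases before its start. The 7 tested genes with a promoter had a GC content of 48.3% to 70.3%, and Cyp2e1 had 46.0%. The median GC content was 59.7% over the promoters of all genes tested and 46.0% over those of genes in the files that had too few reads. These are descriptions of the sequence windows and not of factor binding.

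The comparison of ethanol with control asks whether a single low dose changed the transcripts of ethanol's own metabolism within 1 h. Of the 8 tested members, 0 had an adjusted p below 0.2, the threshold of the study, as did 0% of all 18141 genes tested (quasi-likelihood F test of edgeR, p-values adjusted by the method of Benjamini and Hochberg). The study itself reported genes at an FDR below 0.2 in its RNA-seq data, so the 0% holds for the fit used here. An unadjusted p below 0.05 was reached by 1 of the 8, Aldh1a1, against 4.15% of all genes tested. In the direction of higher levels after ethanol this was 1 of 8 against 1.57% of all genes, and in the direction of lower levels 0 of 8 against 2.58%. For 0 of the 8 did the ethanol and control libraries separate fully, against 8.85% of all genes tested, of which 3.65% were higher and 5.19% lower after ethanol. Among other tools, edgeR's likelihood ratio test called 77 genes, DESeq2 81 and limma-voom 0, and 0 of the members were called by any of them. The members had a median log2 fold change of 0.03, beside 0.01 over all genes tested, with 5 above and 3 below 0. Apart from Aldh1a1, the log2 fold changes lay between -0.16 and 0.09. Their 95% intervals lay between -0.40 and 0.27, which corresponds to folds from 0.758 to 1.21. Changes within these intervals could not be resolved with 3 libraries per group. The p-values measure the spread between pools of rats and not between single animals.

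**Figure D2:**
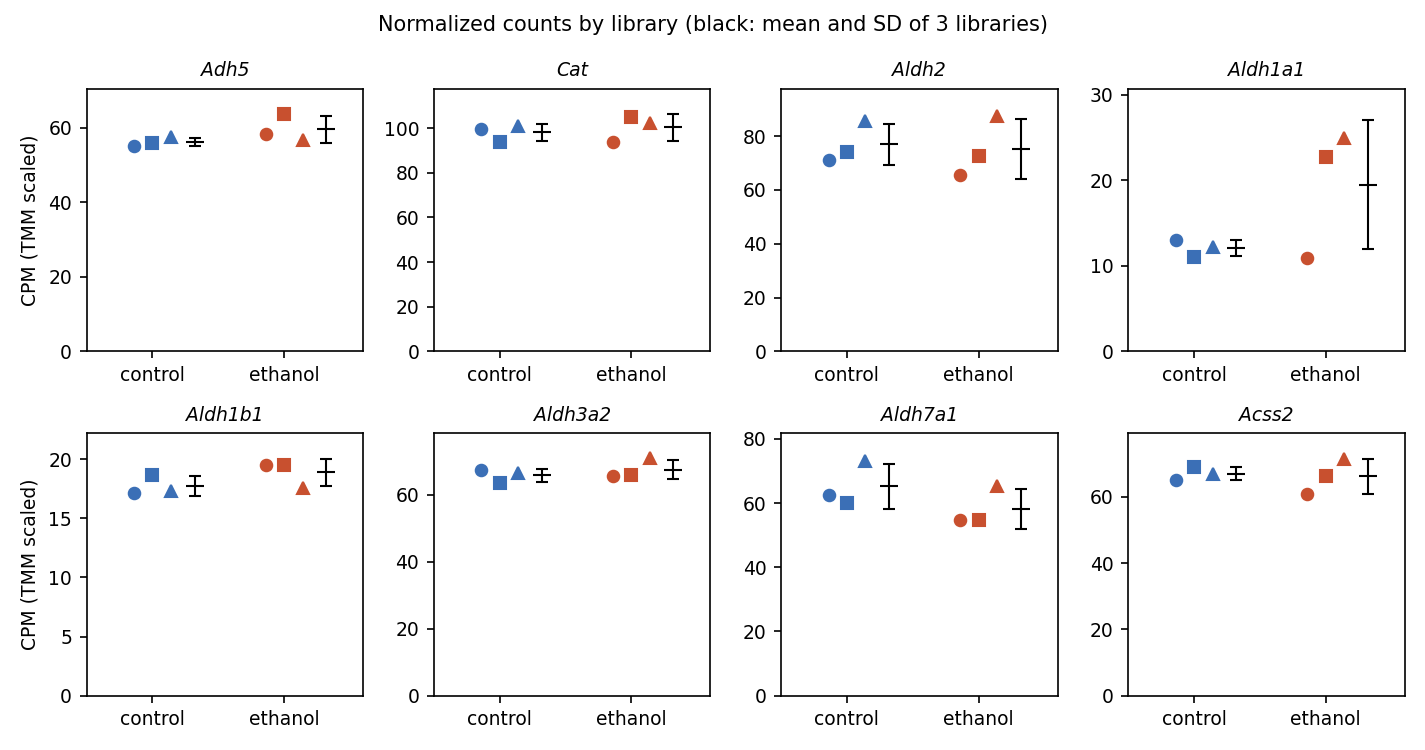
CPM (TMM scaled, axes from 0) of the 8 tested genes in each library; blue marks are control and red marks ethanol libraries, shapes give replicates 1 (circle), 2 (square) and 3 (triangle), and black bars are the mean and SD of 3 libraries. The groups overlap in all 8 panels, and only Aldh1a1 has ethanol libraries far from the others, at 22.7 and 25.0 CPM.

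**Figure D3:**
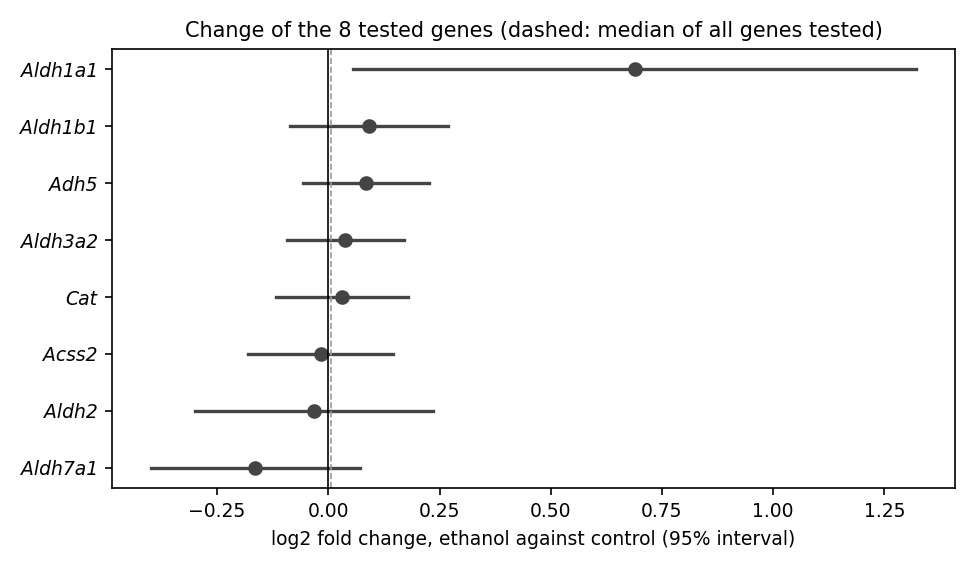
Log2 fold change of the 8 tested genes, ethanol against control, as a point with its 95% interval from edgeR's quasi-likelihood fit; the solid line is 0 and the dashed line the median of all genes tested. All intervals include 0 except that of Aldh1a1, which runs from 0.06 to 1.32.

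Among the enzymes of the first step, Adh5 is the class III alcohol dehydrogenase, which removes formaldehyde bound to glutathione and binds ethanol weakly. It stood at 55.2, 55.9 and 57.4 CPM in the control libraries and at 58.4, 63.5 and 56.7 CPM in the ethanol libraries. Ethanol replicates 1 and 2 were above all controls, while replicate 3 was within their range. The control mean was 56.1 ± 1.11 CPM (SD, n = 3) and the ethanol mean 59.5 ± 3.55 CPM (SD, n = 3). This gave a log2 fold change of 0.08 (standard error 0.06, 95% interval -0.06 to 0.23, adjusted p = 1.0, edgeR).

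Cat (chr3:93379872-93412058, minus strand, 13 exonic blocks) encodes catalase. Its level was 99.5, 93.9 and 101 CPM in the control libraries and 93.7, 105 and 102 CPM in the ethanol libraries. The groups overlapped almost entirely. The log2 fold change was 0.03 (standard error 0.06, 95% interval -0.12 to 0.18, adjusted p = 1.0, edgeR). Red blood cells, which are rich in catalase, left hemoglobin reads in all libraries. The summed level of 6 red blood cell markers was 172 to 292 CPM in controls and 298 to 333 CPM after ethanol, with 5 of the 6 tested and Hbb-b1 at 0 or 1 count, and its part in the Cat level was not tested.

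Cyp2e1 (chr1:213511892-213522195, plus strand, 9 exonic blocks), the ethanol-inducible P450 of the liver, had 5, 22 and 11 counts in the control libraries and 7, 5 and 9 counts after ethanol. The highest control library stood apart from the other 5, and the groups overlapped. The ethanol to control ratio of the summed counts, 21 against 38, was 0.557, with a 95% interval of 0.311 to 0.974 that covers counting error only and not the spread between libraries. In a fit with no filter on low counts, its log2 fold change was -0.82 (unadjusted p = 0.14, adjusted p = 0.983, edgeR). Without control replicate 1, Cyp2e1 passed the filter, with a log2 fold change of -1.20 (unadjusted p = 0.028, adjusted p = 1.0, edgeR). It also passed without ethanol replicate 1, 2 or 3, where the log2 fold changes were -0.84, -0.65 and -1.0003. The unadjusted p-values there were 0.231, 0.317 and 0.162 by edgeR. In each of these leave-out fits, only control replicates 2 and 3, at 22 and 11 counts, met the filter. Cyp2e1 thus entered through the group where it was higher, and these p-values were not taken as a result. DESeq2 on all libraries gave an unadjusted p of 0.267. Adh7, the class IV enzyme of the stomach that also oxidizes retinol, had 7, 2 and 1 counts in the controls and 2, 3 and 3 after ethanol. The ratio of its summed counts, 8 against 10, was 0.807, and the counting interval of 0.277 to 2.27 includes 1. Cyp2e1 stood at 0.0765 to 0.310 CPM over the 6 libraries. Set beside it, the levels of 6 hepatocyte markers summed to 7.52 to 7.77 CPM in controls and 7.99 to 9.42 CPM after ethanol. Of these markers, 3 of the 6 were tested, and Tat and Fgb were at 3 counts or fewer in every library.

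The second step was represented by 5 aldehyde dehydrogenases, which oxidize aldehydes to acids with NAD+ or NADP+. Aldh2 (chr12:40466418-40498813, plus strand, 13 exonic blocks) encodes the mitochondrial enzyme with the highest affinity for acetaldehyde. It was measured at 71.1, 74.3 and 85.7 CPM in the control libraries and at 65.7, 72.7 and 87.5 CPM in the ethanol libraries. Both groups covered nearly the same range, and the highest value of each was replicate 3. The log2 fold change was -0.03 (standard error 0.12, 95% interval -0.30 to 0.24, adjusted p = 1.0, edgeR).

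Aldh7a1 (chr18:51619007-51651267, minus strand, 18 exonic blocks) encodes antiquitin, which acts in lysine breakdown and also oxidizes lipid aldehydes. Its level was 62.5, 60.0 and 73.3 CPM in the control libraries and 54.7, 54.6 and 65.4 CPM in the ethanol libraries. Ethanol replicates 1 and 2 were below all controls, whereas replicate 3 exceeded the controls 1 and 2. The log2 fold change was -0.16 (standard error 0.10, 95% interval -0.40 to 0.07, adjusted p = 1.0, edgeR). With a single library left out, the log2 fold change of Aldh7a1 ran from -0.25 to -0.07. Without ethanol replicate 3, it was -0.25, with an unadjusted p of 0.0271 and an adjusted p of 0.504 by edgeR. Without control replicate 3, it was -0.07, with an unadjusted p of 0.489 by edgeR.

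Aldh2 and Aldh7a1 are known to be prominent in astrocytes. The summed level of 6 astrocyte markers, all of them detected, was 6448, 5886 and 7340 CPM in the control libraries and 6187, 6168 and 8389 CPM in the ethanol libraries. Replicate 3 thus had the highest astrocyte sum in each group, as it had for Aldh2 and Aldh7a1. The markers did not all share this order. Slc1a3 was highest in ethanol replicate 1, at 1280, 1127 and 1249 CPM in the ethanol libraries. Gja1 differed little there, at 716, 661 and 748 CPM, whereas S100b stood at 1423, 1415 and 2155 CPM and Gfap at 634, 820 and 1419 CPM. The part of the astrocyte content in these levels was not tested.

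Aldh3a2 (chr10:47525486-47546535, minus strand, 11 exonic blocks) encodes the fatty aldehyde dehydrogenase of the endoplasmic reticulum. It varied least of the aldehyde dehydrogenases, with 67.2, 63.5 and 66.4 CPM in the control libraries and 65.7, 65.9 and 70.8 CPM after ethanol. Its log2 fold change was 0.04 (standard error 0.06, 95% interval -0.09 to 0.17, adjusted p = 1.0, edgeR). Aldh1b1 (chr5:61382351-61387359, plus strand, 2 exonic blocks) encodes a mitochondrial enzyme closely related to Aldh2. Its level was 17.1, 18.7 and 17.3 CPM in the control libraries and 19.5, 19.5 and 17.6 CPM in the ethanol libraries. Ethanol replicates 1 and 2 lay above all controls and replicate 3 among them. The log2 fold change was 0.09 (standard error 0.08, 95% interval -0.09 to 0.27, adjusted p = 1.0, edgeR).

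Aldh1a1 (chr1:238222689-238264381, plus strand, 13 exonic blocks) encodes a cytosolic enzyme that oxidizes retinaldehyde to retinoic acid as well as acetaldehyde. It had 850, 787 and 775 counts in the control libraries and 697, 1459 and 1738 counts in the ethanol libraries, that is, 13.0, 11.1 and 12.2 CPM against 10.9, 22.7 and 25.0 CPM. Ethanol replicate 1 was the lowest of the 6 libraries, while replicates 2 and 3 were the highest. The means were 12.1 ± 0.966 CPM (SD, n = 3) and 19.5 ± 7.57 CPM (SD, n = 3), and the spread within the ethanol group, 38.8% of its mean, was the widest of the 8 tested genes in either group. The log2 fold change was 0.69 (standard error 0.27, 95% interval 0.06 to 1.32), with an unadjusted p of 0.0365 and an adjusted p of 1.0 by edgeR. A 2-sided exact permutation test gave p = 0.4, where 3 libraries against 3 allow no p under 0.1. The difference rested on ethanol replicates 2 and 3. Without ethanol replicate 1, the log2 fold change was 0.98 and the adjusted p 0.162 by edgeR, below 0.2. Without ethanol replicate 3, it was 0.47, with an adjusted p of 0.647 by edgeR. The unadjusted p was 0.0624 to 0.128 without any single library other than ethanol replicate 1, so it stayed below 0.05 in 1 of 6 such fits. Aldh1a7, a close copy of Aldh1a1 in rodents, matched no gene of the files, and reads that align to several places had been left out, so the Aldh1a1 level is uncertain to that extent.

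Markers of other cell types were compared with the Aldh1a1 pattern. The summed level of 8 choroid plexus markers was 514 to 1115 CPM in controls and 11.4, 12.6 and 477 CPM in ethanol replicates 1, 2 and 3, with 7 of the 8 tested and Otx2 at 0 or 1 count. The sum of 7 markers of motile cilia and ependyma was 85.4 to 125 CPM in controls and 71.1 to 78.9 CPM after ethanol. For 6 markers of the leptomeninges, of which Col1a2 was listed at 0, the sum was 162 to 307 CPM in controls and 111, 226 and 177 CPM in the ethanol libraries. The 6 endothelial markers summed to 215 to 248 CPM in controls and 214 to 240 CPM after ethanol. The 6 oligodendrocyte markers summed to 8379, 3549 and 5861 CPM in controls and 4355, 6022 and 9727 CPM after ethanol, and in both groups the order of the libraries was that of Aldh1a1. The part of cell make-up in the Aldh1a1 difference was not tested.

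The genes whose pattern over the 6 libraries was most like that of Aldh1a1 were looked up after its values were seen. Among 14241 genes above 1 CPM in every library, the 3 with the highest Pearson correlation of log2 CPM with Aldh1a1 were Arrdc2 (r = 0.993), Mbd2 (r = 0.992) and Bcl2l1 (r = 0.985), a description over 6 libraries that share their groups. Arrdc2, an arrestin-domain gene, stood at 12.4, 11.6 and 11.7 CPM in the control libraries and at 11.7, 17.5 and 18.7 CPM in the ethanol libraries. Its ethanol replicates 2 and 3 were above the other 4 libraries, which follows from its choice by correlation and adds no support for a likeness. Mbd2, by contrast, lay between 37.0 and 40.6 CPM in all libraries, so its shared pattern was a small one.

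Per length, the 5 aldehyde dehydrogenases together summed to 93.4 to 117 RPKM. Aldh2 held 34.4% to 37.2% of this sum. The share of Aldh1a1 was 6.20%, 5.33% and 5.19% in controls, against 5.57%, 10.6% and 10.2% after ethanol. Aldh7a1 held 31.8% to 34.3% of the sum in controls and 28.1% to 30.9% after ethanol, ranges that did not overlap. Its level in CPM did overlap between the groups, and so did the shares of the other genes of the sum. In level, the groups did not overlap for 8.85% of all genes tested, and no such figure was taken for shares. Shares within a sum are not independent, since a larger Aldh1a1 share lowers the summed share of the others. In ethanol replicate 1, however, the Aldh1a1 share of 5.57% lay within the control range. The Aldh7a1 share of that library, 30.9%, was still below all controls. The part of the Aldh1a1 share in the Aldh7a1 difference was not tested. In the first step, Adh5 made up 50.3% to 53.3% and Cat 46.6% to 49.6% of the summed RPKM of its 4 genes in all libraries, and Cyp2e1 at most 0.246%.

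**Figure D4:**
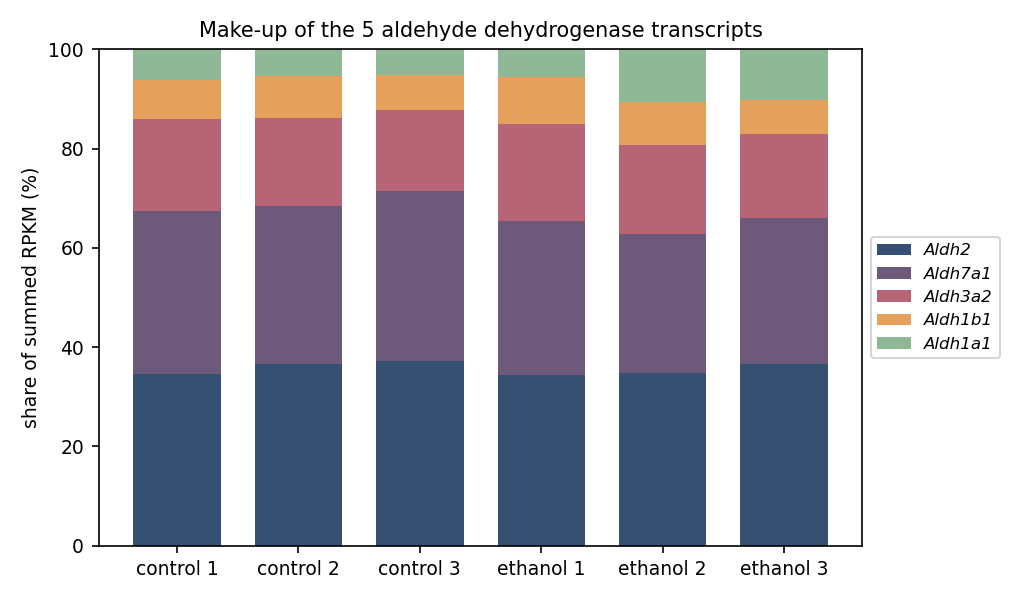
Share of each of the 5 aldehyde dehydrogenase transcripts in their summed RPKM, in percent, as stacked bars for each library. Aldh1a1 takes 10.6% and 10.2% in ethanol replicates 2 and 3 and 5.19% to 6.20% in the other libraries.

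The last step was represented by Acss2 (chr3:151032925-151075856, plus strand, 19 exonic blocks), the nuclear and cytosolic acetyl-CoA synthetase. Its level was 65.0, 68.9 and 66.9 CPM in the control libraries and 60.7, 66.4 and 71.3 CPM in the ethanol libraries. The ethanol libraries reached below and above all controls. The means were 66.9 ± 1.99 CPM (SD, n = 3) and 66.1 ± 5.29 CPM (SD, n = 3), with a log2 fold change of -0.02 (standard error 0.07, 95% interval -0.18 to 0.15, adjusted p = 1.0, edgeR). The exons of all 10 members shared no bases with another gene on either strand.

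Genes around these steps were described in 7 lists of 78 genes, of which 77 were in the files and 71 were tested. An adjusted p below 0.2 was reached by 0 of the 71 by edgeR, and 4 had an unadjusted p below 0.05, all of them higher after ethanol. This is 5.63% of the 71, beside 4.15% of all genes tested in either direction, 1.57% higher and 2.58% lower. The libraries of the groups separated fully for 7 of the 71, with 6 of them higher after ethanol (Akr1a1, Aldh3b1, Aldh3b3, Acat2, Gpd1 and Por) and Cel lower, beside 8.85% of all genes tested in either direction, 3.65% higher and 5.19% lower.

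Of the 5 tested genes among other alcohol dehydrogenases and reductases, 0 had an unadjusted p below 0.05 (median log2 fold change 0.05). Akr1a1, the aldehyde reductase, and Esd, the esterase that completes formaldehyde removal after Adh5, had the highest levels of that list, with mean levels of 316 and 54.1 RPKM and log2 fold changes of 0.05 and 0.0025. Among the other aldehyde dehydrogenases, 14 were tested and 1 had an unadjusted p below 0.05, with a median log2 fold change of 0.02. This was Aldh3b3, a lipid aldehyde dehydrogenase, at 17.4, 19.9 and 17.1 CPM in the control libraries and 22.5, 20.4 and 20.5 CPM in the ethanol libraries (log2 fold change 0.22, standard error 0.09, unadjusted p = 0.0313, adjusted p = 1.0, edgeR). Its groups did not overlap. Aldh5a1, which clears succinic semialdehyde from GABA breakdown, and Aldh6a1 had the highest levels of that list at 43.9 and 39.1 RPKM, with log2 fold changes that lay within 0.01 of 0.

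For acetate and acetyl-CoA handling, 2 of 9 tested genes had an unadjusted p below 0.05, with a median log2 fold change of -0.00036 over the list. Acat2, the cytosolic thiolase, had 17.3, 17.6 and 17.4 CPM in the control libraries and 18.7, 20.8 and 20.1 CPM in the ethanol libraries (log2 fold change 0.19, unadjusted p = 0.0244, adjusted p = 1.0, edgeR). Its groups did not overlap. Slc16a7, a monocarboxylate transporter of neurons, had 31.0, 35.5 and 29.6 CPM in the control libraries and 36.6, 41.4 and 34.9 CPM after ethanol (log2 fold change 0.23, unadjusted p = 0.0408, adjusted p = 1.0, edgeR). Its groups overlapped. The summed level of 5 neuron markers was 3413, 3623 and 3216 CPM in the control libraries and 3823, 4156 and 3086 CPM after ethanol, in the same order within each group as Slc16a7, and its part in the Slc16a7 level was not tested. Acly, the citrate lyase that is the other cytosolic source of acetyl-CoA, and Acat1 had the highest levels at 69.8 and 35.2 RPKM, and log2 fold changes that lay within 0.01 of 0.

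Ethanol and acetaldehyde oxidation reduce NAD+ to NADH, which is reoxidized through shuttles into the mitochondrion. Of 11 shuttle genes tested, 1 had an unadjusted p below 0.05, and the median log2 fold change was 0.06. Gpd1, the cytosolic glycerol-3-phosphate dehydrogenase, stood at 71.6, 64.2 and 59.4 CPM in the control libraries and at 83.2, 119 and 154 CPM in the ethanol libraries. All ethanol libraries were above all controls, and replicate 1 was the closest to them. Its log2 fold change was 0.87 (standard error 0.20, 95% interval 0.41 to 1.33), with an unadjusted p of 0.00263 and an adjusted p of 0.85 by edgeR. The exact permutation test gave p = 0.1, the smallest possible with 3 libraries per group. Gpd1 is known to be enriched in oligodendrocytes, whose 6 summed markers stood at 8379, 3549 and 5861 CPM in the control libraries and at 4355, 6022 and 9727 CPM after ethanol. Within the ethanol group the order of the libraries was the same for Gpd1 and the oligodendrocyte sum, and within controls it was not, and the part of these cells in the Gpd1 level was not tested. Over the 6 libraries the Gpd1 pattern correlated with that of Aldh1a1 by r = 0.909, again as a description. Its rank among the 14241 genes compared was not taken. Mdh1 and Ldhb, the most abundant of the list at 377 and 292 RPKM, had log2 fold changes of 0.02 and 0.07.

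Of the 9 tested genes of microsomal and non-oxidative routes (median log2 fold change 0.04), the 14 of peroxide and glutathione defence (-0.0037) and the 9 of the peroxisome (0.04), 0 had an unadjusted p below 0.05 by edgeR. The first of these lists was led by Cyb5a at 61.6 RPKM and by Por, the electron donor of Cyp2e1, at 40.0 RPKM with a log2 fold change of 0.14 (95% interval -0.01 to 0.29), while Cyp1a2 was listed at 0 in all libraries. Sod1 and Gpx4 led the second at 306 and 167 RPKM, with log2 fold changes of -0.03 and 0.02. Abcd3, of the peroxisome that also houses catalase, had the highest level of the third at 39.7 RPKM, with a log2 fold change within 0.01 of 0.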

How the data were processed

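RNA-seq was carried out on 6 libraries of rat amygdala, 3 control and 3 ethanol, each from RNA of 2 rats. Per the labels and file headers, stranded libraries gave 100 nt single-end reads, STAR 2.7.0f is named as aligner, and featureCounts 1.6.3 counted reads over exons of the Rnor_6.0 annotation with strand setting 2. The authors deposited raw counts per gene, without normalization or filter, and reads aligning to several places or overlapping several genes were not counted. Symbols came from a RefSeq gene table of build GRCr8 for 29322 gene identifiers and left 9123 without one.

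Differential expression was tested on the counts by edgeR 4.0.16 in R 4.3.3 (filterByExpr, TMM, quasi-likelihood F test, Benjamini-Hochberg adjustment over 18141 genes). The threshold was an adjusted p of 0.2, as in the study. The standard error is the absolute log2 fold change divided by the square root of F, and the 95% interval uses the t distribution of the fit. RPKM divides TMM-scaled CPM by the exonic length in the files. Alternatives used limma 3.58.1, DESeq2 1.42.0, other scalings and filters, a replicate block, and each library left out. The genes named are the 10 members, and from each related list those with an unadjusted p below 0.05, the 2 with the highest mean RPKM and any near 0. One gene that this rule names is not reported here. Members and lists were chosen with earlier results of these data known. Intervals of summed counts cover counting error only, as they pool the libraries of each group. PCR copies were not marked by molecular identifiers, so even the counting error may be understated.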

Additional observations from a re-analysis of the deposited data

How the results depend on the processing

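The 8 member fold changes were recomputed under 14 alternatives, which gave 112 values. Of these, 106 kept their direction and their side of the adjusted p of 0.2, 5 changed sign and 1 crossed the threshold. The sign changes were in members whose log2 fold change was close to 0. They were Acss2 without control replicate 2 (0.0051) and without ethanol replicate 1 (0.041), Aldh2 without control replicate 3 (0.051) and without ethanol replicate 1 (0.057), and Cat without ethanol replicate 2 (-0.0021). When single libraries were left out, the log2 fold change ran from -0.074 to 0.041 for Acss2, from -0.15 to 0.057 for Aldh2, from -0.0021 to 0.078 for Cat and from 0.47 to 0.98 for Aldh1a1, whose adjusted p by edgeR ran from 0.162 to 1.0. The number of members with an adjusted p below 0.2 ran from 0 to 1 with a library left out, the 1 being Aldh1a1 without ethanol replicate 1 (0.98), and over all genes the number ran from 0 to 83. Without ethanol replicate 3 it was 83 and without ethanol replicate 1 it was 4. The cause was not tested. The number of members with an unadjusted p below 0.05 ran from 0 to 1 and was 0 without control replicate 2, control replicate 3 or ethanol replicate 2. The 1 was Cyp2e1 without control replicate 1, Aldh7a1 without ethanol replicate 3 and Aldh1a1 without ethanol replicate 1, so Aldh1a1 kept an unadjusted p below 0.05 in 1 of 6 such fits. Without control replicate 1, Cyp2e1 passed the filter only through the remaining controls. The number of such members was also 0 with limma-voom, where Aldh1a1 had a p of 0.0777 and a log2 fold change of 0.61. Over all genes, DESeq2 called 81 and edgeR's likelihood ratio test 77 at an adjusted p below 0.2, where Aldh1a1 had 0.531 and 0.851. The unadjusted p of Aldh1a1 was smaller than in the main fit there, at 0.00426 by DESeq2 and 0.0150 by the likelihood ratio test. With no filter on low counts, it was 0.0134 by edgeR's quasi-likelihood test, and the adjusted p was 0.983. Its log2 fold change was 0.67 with library size alone, which moved the median of all genes from 0.01 to -0.02. The order of the 10 members per length was the same with library size alone, a setting that cannot change the order within a library. It is therefore no check of that order.

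Replicate numbers 1 to 3 occur in both groups, whose rats were different, so the numbers were not taken to pair the libraries. Over 14241 genes, the deviations of each library from its group mean correlated between same-numbered libraries by 0.0264, 0.388 and 0.211, all positive. Between libraries of different number, the correlations ran from -0.427 to 0.305, the highest being control 1 with ethanol 3. These correlations alone cannot decide whether the libraries are paired. With the replicate number as a block, 0 genes and 0 members had an adjusted p below 0.2 by edgeR, 1 member, Aldh7a1, had an unadjusted p below 0.05 (0.0166), and Aldh1a1 had a log2 fold change of 0.61 with an unadjusted p of 0.0542. The 3 libraries per group limit what can be resolved, and for Adh7 and Cyp2e1 the counts of 1 to 22 per library do.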

Other observations

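Among the aldehyde dehydrogenases outside the 10 members, Aldh1a2, which makes retinoic acid in the meninges, and Aldh1l1, the folate enzyme used as an astrocyte marker, were singled out after their values were seen. Aldh1a2 stood at 13.9, 6.45 and 29.9 CPM in the control libraries and at 10.2, 20.8 and 15.1 CPM in the ethanol libraries, a spread within controls that was wider than the difference between the groups. Control replicate 3 and ethanol replicate 2 were the highest of their groups, as they were for the summed markers of the leptomeninges (307 and 226 CPM). Aldh1l1 stood at 29.6, 34.6 and 39.6 CPM in the control libraries and at 28.5, 35.0 and 54.5 CPM in the ethanol libraries, with the highest value of each group in replicate 3. Adh1c, the neighbour of Adh7 on chromosome 2, had 19, 11 and 32 counts in the control libraries and 13, 32 and 19 counts after ethanol. Its highest libraries were control replicate 3 and ethanol replicate 2, at low counts. The part of cell make-up in the levels of Aldh1a2, Aldh1l1 and Adh1c was not tested.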
